A study of Mus musculus with 4 samples.

Results

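The phagocyte NADPH oxidase is described here through 5 genes, Cybb, Cyba, Ncf1, Ncf4 and Rac2, which were taken by their symbols from the 27998 genes counted in every library. Their transcripts were counted as unique molecular identifiers (UMIs) in single cells of the liver of male wild-type C57BL/6 mice, bought at 8 weeks of age and matched for weight. The mice had 6 weeks of a normal control diet (NCD) or of a diet deficient in methionine and choline (MCD), which is widely used to bring about fatty, inflamed liver. Each diet has 2 libraries of sorted cells, which excluded 7AAD (live), carried CD45 and intermediate CD11b and lacked Ly6G. The sample labels call these cells F4/80 high and the series text calls them F4/80 low, and nothing says whether 1 mouse or several went into a library. No label names a batch and each library holds a single diet, so batch and diet cannot be told apart, and the p-values measure the spread between 2 libraries per diet.

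The enzyme moves electrons from NADPH across a membrane to oxygen and so makes superoxide, with which phagocytes kill microbes and send oxidant signals. Its catalytic core is a membrane heterodimer of gp91phox, the Cybb product that carries the redox centres, and p22phox, the Cyba product that stabilises it. On activation the organiser p47phox (Ncf1), the phosphoinositide-binding p40phox (Ncf4) and a Rac GTPase, in leukocytes mainly Rac2, move from the cytosol to this core. Loss of any of the phox subunits causes chronic granulomatous disease in people, and in fatty liver the oxidase of recruited monocytes and macrophages is studied as a source of oxidative stress.

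The genes lie on 4 chromosomes of GRCm38, and each is annotated as protein-coding. Cybb (ENSMUSG00000015340) lies on chromosome X from 9435252 to 9487771 on the minus strand and its principal transcript has 13 exons. Cyba (ENSMUSG00000006519) lies on chromosome 8 from 122424776 to 122432930 on the minus strand, with 6 exons. Ncf1 (ENSMUSG00000015950) lies on chromosome 5 from 134220053 to 134229625 on the minus strand. Ncf4 (ENSMUSG00000071715), with 10 exons on the plus strand from 78244801 to 78262580, and Rac2 (ENSMUSG00000033220), with 7 exons on the minus strand from 78559167 to 78572783, are both on chromosome 15. Cyba overlaps the gene Gm20388 and Ncf1 overlaps Gtf2ird2, in each case on the opposite strand. No source used here says whether strand was used in counting, so reads of these overlapping genes may not have been told apart.

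Promoters are shown for Cybb, Cyba and Ncf1, the genes of the 5 for which one was available. They are the 250 bases upstream of the start in the RefSeq table (GRCm38.p6), which matched 3 of the 5 genes and not Ncf4 or Rac2. Capitals mark matches on either strand to GAAA, any 2 bases and again GAAA, the core of the interferon-stimulated element, and all windows are written 5′ to 3′ on the gene's strand. The windows are chrX:9469325-9469574, chr8:122432941-122433190 and chr5:134229626-134229875, each on the minus strand.
Cybb: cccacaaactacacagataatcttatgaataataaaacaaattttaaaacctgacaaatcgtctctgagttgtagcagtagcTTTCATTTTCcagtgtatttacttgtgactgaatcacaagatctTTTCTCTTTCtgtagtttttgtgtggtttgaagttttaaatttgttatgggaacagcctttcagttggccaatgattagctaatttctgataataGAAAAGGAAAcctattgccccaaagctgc
Cyba: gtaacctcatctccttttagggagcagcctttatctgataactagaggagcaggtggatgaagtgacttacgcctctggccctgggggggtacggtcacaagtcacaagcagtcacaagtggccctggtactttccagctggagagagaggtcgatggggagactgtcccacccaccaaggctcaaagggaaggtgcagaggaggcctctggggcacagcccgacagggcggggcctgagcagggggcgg
Ncf1: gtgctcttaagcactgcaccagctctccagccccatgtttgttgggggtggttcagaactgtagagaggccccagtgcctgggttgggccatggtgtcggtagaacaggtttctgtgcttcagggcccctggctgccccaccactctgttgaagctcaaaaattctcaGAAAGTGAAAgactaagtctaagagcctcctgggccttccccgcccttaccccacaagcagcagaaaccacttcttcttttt
The Cybb window held 3 such matches, starting 168, 124 and 29 bases before the start, the Ncf1 window held 1, starting 82 bases before it, and the Cyba window held 0. Of 32851 RefSeq promoters cut to the same length, 2.98% held a match. The letters GAGGAA, a core bound by PU.1, were found on neither strand of these 3 windows and in 23.3% of all promoters, and TATAAA was found in none of the 3 and in 12.4% of all. The G+C content of the windows was 34%, 60% and 54.4% in the same order. A match is a string of letters and not a shown binding site, and the Cybb window lies within the span that the gene annotation gives to Cybb.

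The 4 libraries differed in depth in the same direction as diet. They held 12306 barcodes, of which 9609 passed limits of 200 genes or more and 10% mitochondrial UMIs or less. A retained cell held a median of 2173 and 2253.5 UMIs in NCD replicates 1 and 2 and of 12038 and 12300 UMIs in MCD replicates 1 and 2. Between 1 and 8 retained barcodes were shared by any pair of libraries. The cells fell into 26 clusters, most of them of 1 diet, and were named by 24 lists of marker genes. Clusters like Ly6Chi monocytes, like Ly6Clo monocytes and like macrophages were joined into a union of 842 and 809 NCD cells and 1581 and 1698 MCD cells. In the union the leukocyte gene Ptprc, which encodes CD45, was at 987 to 1323 CPM (UMIs per 1000000 UMIs of a library in those cells).

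Summed marker lists of lipid-associated macrophages and of other cells also moved with diet or with 1 library in the union. The 14 lipid-associated macrophage markers had 1167 and 1105 CPM on NCD and 4058 and 3769.7 CPM on MCD, with UMIs for 14 of 14. The hepatocyte list had 146 and 163 CPM on NCD against 296 and 295 CPM on MCD, for 16 of 16 markers. The neutrophil list, with Ly6g at 0 and 12 of 13 markers seen, had 1502 CPM in NCD replicate 1 against 204 to 334 CPM in the other 3 libraries. The part of these cells in the results below was not tested, apart from the fits that leave out a library.

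In the union of monocytes and macrophages, transcripts of 4 of the 5 oxidase genes rose on MCD and Cybb did not pass the test. Ncf4 rose by a factor of 3.15, Cyba by 2.40, Rac2 by 1.54 and Ncf1 by 1.31. All 5 genes passed the filter on low counts, and 21.5% of the 11271 genes tested were called higher on MCD and 39.8% in either direction. The median log2 fold change was 0.62 over the 5 genes and 0.03 over all genes tested. These folds come from the edgeR quasi-likelihood test on summed UMIs after TMM scaling, which sets the libraries to a common level over most genes, adjusted by Benjamini-Hochberg over all genes tested and called at 0.05. CPM uses library totals instead, and that scaling moves the median of all genes to 0.38, so CPM ratios run above the fitted folds.

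The partners of the membrane core differed in their diet response. Cybb had 1416 and 1484 CPM in the NCD libraries and 1696 and 1755 CPM in the MCD libraries. Its diets did not overlap in CPM, yet after TMM scaling its log2 fold change was -0.10 ± 0.08 (SE, adjusted p = 0.374), and with library totals it was 0.25 (adjusted p = 0.0193). Whether Cybb is called therefore turned on the scaling. It also turned on the clustering, since clusters made without the oxidase genes gave a lower call (-0.26, adjusted p = 0.0467 by edgeR). Cyba had 559.7 and 489 CPM on NCD and 1630.3 and 1582 CPM on MCD. Both MCD libraries lay well above both NCD libraries, with a log2 fold change of 1.26 ± 0.11 (adjusted p = 7.36e-05 by edgeR).

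The cytosolic subunits also differed among themselves. Ncf1 had 98 and 101 CPM on NCD and 164 and 168 CPM on MCD, with a log2 fold change of 0.39 ± 0.10 (adjusted p = 0.0188 by edgeR). This call was not kept when any of the 4 libraries was left out, with adjusted p from 0.0657 to 0.165. Ncf4 had 56.7 and 69.7 CPM on NCD and 247 and 260.2 CPM on MCD, and its log2 fold change of 1.66 ± 0.12 (adjusted p = 4.18e-05) stayed past the threshold under all 20 alternatives run in the union.

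After TMM scaling the fitted changes of the GTPases had opposite signs. Rac2 had 183 and 176 CPM on NCD and 349 and 355 CPM on MCD, with a log2 fold change of 0.62 ± 0.10 (adjusted p = 0.00187 by edgeR). Rac1, the widely expressed relative that can serve the same step, had 429 and 427 CPM on NCD and 449 and 432 CPM on MCD. Its CPM hardly differed, and its log2 fold change after TMM scaling was -0.31 ± 0.09 (adjusted p = 0.0263), which stood on the other side of 0 from its CPM. With library totals it was 0.04 (adjusted p = 0.764), so whether Rac1 is called lower turned on the scaling. In CPM all 5 genes had both MCD libraries above both NCD libraries, as had 55.5% of the genes tested, and the diets of 75.5% did not overlap in either direction.

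**Figure D1:**
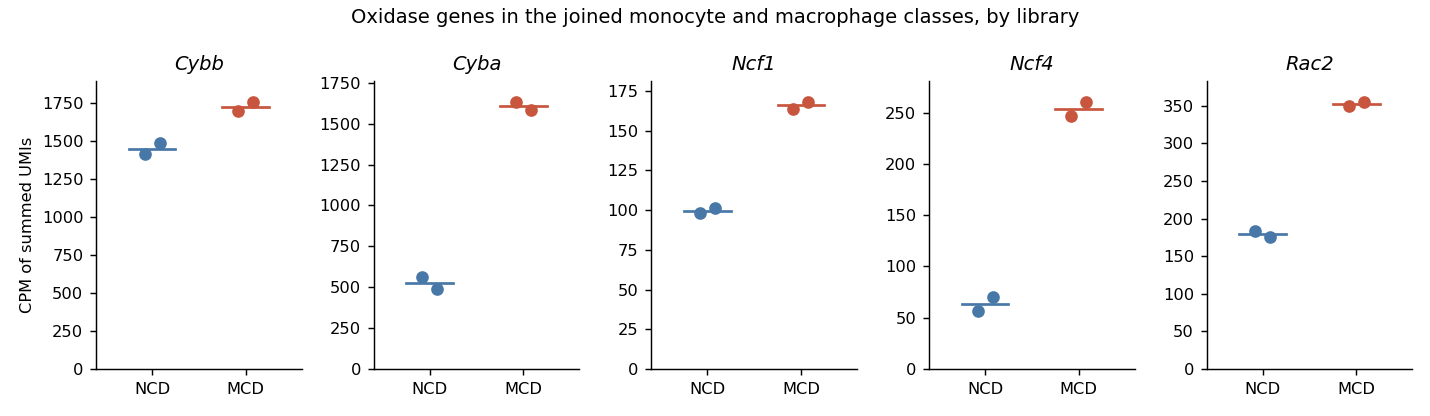
CPM of summed UMIs (vertical axis, from 0, own scale per gene) of each oxidase gene in the joined monocyte and macrophage classes. Each point is a library and each line the mean of a diet's 2 libraries; Cyba lies at 489 to 559.7 CPM on NCD and at 1582 to 1630.3 CPM on MCD, while the Cybb diets lie closer together.

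G+C content, UMIs per cell and mitochondrial share moved with these differences. The last 500 bases of the longest transcript hold 35.2% G+C in Cybb, 50% in Ncf1, 51.6% in Rac2, 53.2% in Ncf4 and 58.8% in Cyba, against a median of 43.8% over the genes. Across genes the log2 fold change rose with that content, from a trend of -0.27 at the Cybb value to 0.84 at the Cyba value. With the trend removed, Ncf4 stood at 1.12 and Cyba at 0.42 (adjusted p = 2.96e-04 and 0.017), while Ncf1 at 0.07 and Rac2 at 0.20 did not pass (adjusted p = 0.646 and 0.169). In cells of 2000 to 6000 UMIs, which left 417 and 415 NCD and 103 and 103 MCD cells, Ncf4 at 1.19 and Ncf1 at 0.54 passed and Cyba at 0.34 and Rac2 at 0.17 did not (adjusted p = 0.161 and 0.519). Union cells had a median mitochondrial share of 7.77% and 7.39% on NCD and of 3.48% and 3.18% on MCD. Under a limit of 5%, which left 49 and 63 NCD cells, Cyba and Ncf4 passed and Ncf1 at 0.12 did not (adjusted p = 0.819), nor did Rac2 (adjusted p = 0.0595), whose value of 0.65 was no lower than the reported 0.62.

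**Figure D2:**
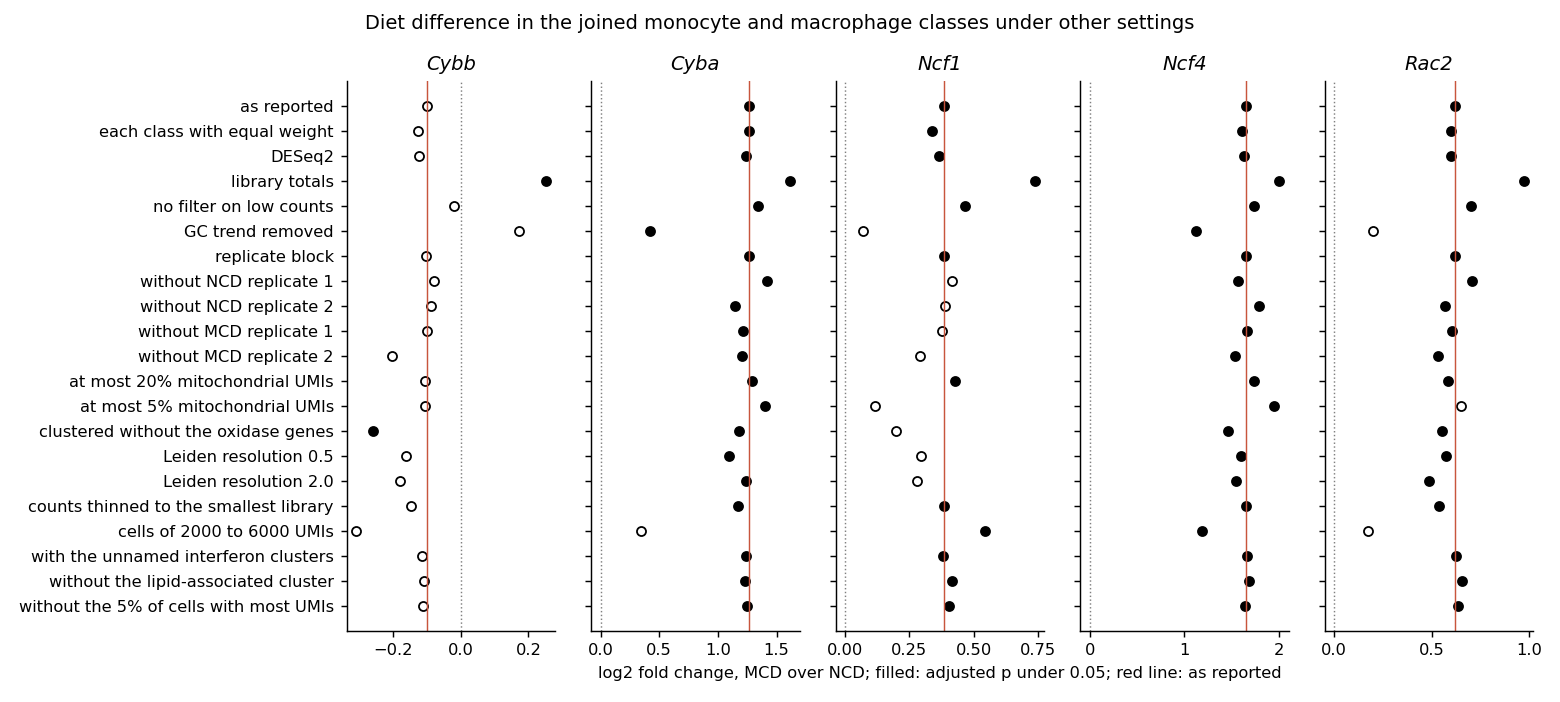
Log2 fold change of MCD over NCD (horizontal axis, own scale per gene) in the joined monocyte and macrophage classes under each setting (rows), with filled points where the adjusted p was under 0.05. The red line is the reported value; Ncf4 is filled in every row, and Cyba falls to 0.42 with the GC trend removed and to 0.34 in cells of 2000 to 6000 UMIs.

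The make-up of the 5 genes' UMIs changed with diet in the same cells. UMIs at transcript ends are compared here between libraries and not between genes, since capture may differ from gene to gene. In the union Cybb gave 61.2% and 64% of the 5 genes' UMIs on NCD and 41.5% and 42.6% on MCD. Cyba gave 24.2% and 21.1% on NCD and 39.9% and 38.4% on MCD. Ncf4 went from 2.45% and 3.01% to 6.03% and 6.32%, whereas Ncf1 stayed between 4.01% and 4.36% in the 4 libraries. The Cybb share was thus lower and the Cyba share higher in both MCD libraries than in both NCD libraries.

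**Figure D3:**
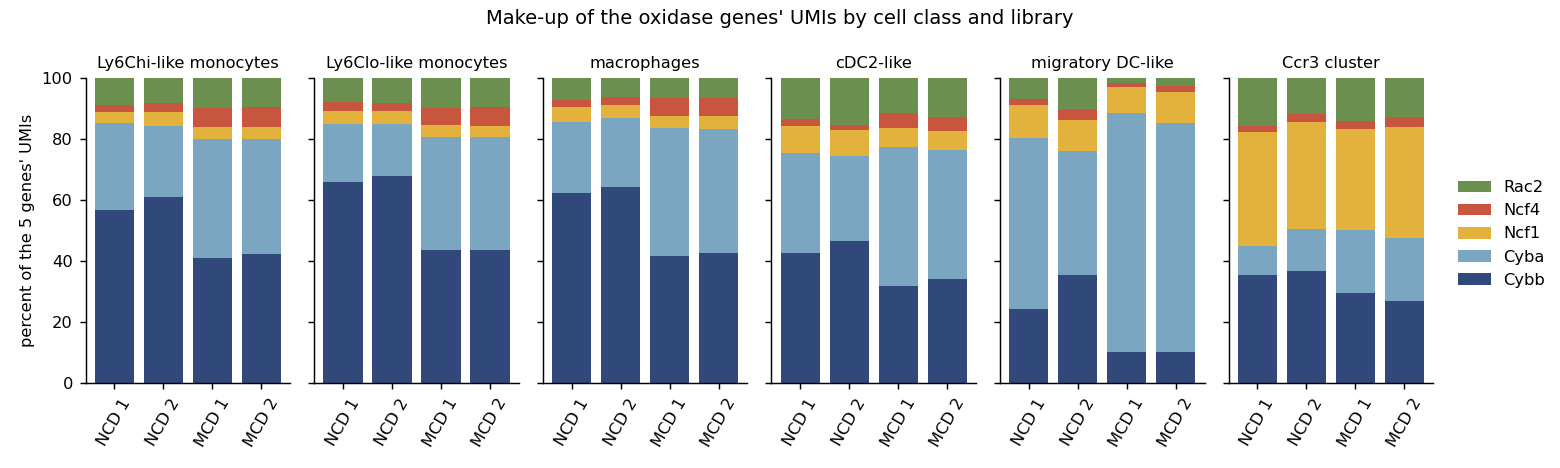
Share of the 5 oxidase genes' UMIs (vertical axis, percent, bars stacked to 100) that each gene holds in 6 cell classes, 1 bar per library. In the Ly6Chi-like, Ly6Clo-like and macrophage panels the Cyba share is larger in both MCD bars than in both NCD bars, and in the Ccr3 cluster Ncf1 holds 33.1% to 37.4% of the bar.

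Cells with a UMI of a gene were also counted at equal depth. Each cell was thinned to 1000 UMIs, which left out 7 and 8 NCD and 1 and 3 MCD cells of the union. A Cyba UMI was then found in 41.8% (95% exact interval 38.4 to 45.2) and 36.8% (33.5 to 40.3) of NCD cells and in 78.8% (76.7 to 80.8) and 76.9% (74.8 to 78.9) of MCD cells. A Cybb UMI was found in 70.8% and 74.3% of NCD cells and in 78.5% and 78% of MCD cells. The Cyba shares of the diets thus lay far apart and the Cybb shares close together. The intervals cover counting error only, and without thinning the Cyba shares were 67.1% and 59.5% on NCD and 99.4% and 99.5% on MCD.

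The less abundant genes were seen in few cells at this depth. An Ncf4 UMI was found in 5.15% and 6.37% of NCD cells and in 20.6% and 22.5% of MCD cells. For Ncf1 the shares were 8.02% and 8.86% on NCD and 16.5% in both MCD libraries, and for Rac2 they were 14.9% and 16.4% against 27.5% and 29.2%. As a level for free RNA, NK cells, which make little gp91phox, had a Cybb UMI in 13.2% and 13.1% of NCD cells (median 1404.5 and 1211 UMIs before thinning) and in 3.45% and 8.33% of MCD cells (median 6375 and 5428 UMIs). The union shares of Cybb lay far above that level in each library. For Ncf4 the NK share was 0 of 38 and 0 of 61 NCD cells, which allows up to 7.89% and 4.92%, a limit above the union share in NCD replicate 1 and below it in NCD replicate 2. On MCD it was 10.3% and 4.17%, below the union shares, though Ncf4 in NK cells stood at 127 and 140.3 CPM there. The NK share of Cyba was 42.1% and 19.7% on NCD, at or above the union share in replicate 1 and below it in replicate 2. On MCD it was 41.4% and 37.5%, below the union shares. Cyba in NK cells stood at 952 and 761 CPM on MCD. Whether its NK share is free RNA was not tested, so it sets no background, and in NCD replicate 1 the union share is not told apart from it. For Ncf1 the NK share was 2.63% and 1.64% on NCD and 3.45% and 0% on MCD, where 0 of 24 cells allows up to 12.5%. Rac2 is itself expressed in NK and T cells, so they give no background for it.

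Cells with both membrane genes were as frequent as the single shares give. A UMI of both Cybb and Cyba was found in 29.9% and 27.1% of thinned NCD union cells and in 62.5% and 59.8% of MCD cells. The products of the single shares were 29.6% and 27.4% on NCD and 61.9% and 60% on MCD. A cell showed on average 1.41 and 1.43 of the 5 genes on NCD and 2.22 and 2.23 on MCD, and none of the 5 was seen in 13.8% and 11.7% of NCD cells and in 2.28% and 2.6% of MCD cells. At 1000 UMIs a gene that is not seen in a cell may still be expressed there.

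Within the union, Cyba and Ncf4 were called higher in each of the 3 classes, Ncf1 passed in none and Cybb was called lower in Ly6Clo-like monocytes. Rac2 was also called higher in each, but in none of the 3 with the GC trend removed. With that trend removed, Cyba did not pass in Ly6Chi-like monocytes. In cells of 2000 to 6000 UMIs, Ncf4 did not pass in Ly6Clo-like monocytes (0.74, adjusted p = 0.0895 by edgeR). Ly6Chi-like monocytes, the classical inflammatory cells, were clusters 1 and 5 on MCD and cluster 2 on NCD, and cluster 5 was led by the inflammatory genes Saa3, Tlr2, Clec4e and Cd14. There Cyba went from 641 and 519 to 1581 and 1545 CPM (0.93 ± 0.14, adjusted p = 5.72e-04 by edgeR) and Ncf4 from 50.5 and 71.5 to 254 and 267 CPM (1.60 ± 0.16). In these cells 3 of the 5 genes were called higher, where 15% of the genes tested were higher and 28.7% were called in either direction. With the GC trend removed, 1 of the 5, Ncf4, was called in this class, and Cyba was not (0.15, adjusted p = 0.461). In cells of 2000 to 6000 UMIs Ncf4 was again the 1 gene called, with Cyba at 0.12 (adjusted p = 0.716). Library totals called 5 of 5.

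The Ly6Clo-like cells, the non-classical monocytes, came from cluster 8 on MCD and cluster 9 on NCD. Cyba went from 476 and 436 to 1316 and 1439 CPM (1.27 ± 0.12, adjusted p = 7.43e-06 by edgeR) and Rac2 from 192 and 206 to 342 and 368 CPM (0.51 ± 0.13), a call that was not kept without NCD replicate 1 (0.49, adjusted p = 0.0671), with the GC trend removed (0.046, adjusted p = 0.837) or in cells of 2000 to 6000 UMIs (0.0088, adjusted p = 0.984). Cybb had 1625 and 1760 CPM on NCD and 1556 and 1709 CPM on MCD, ranges that overlap, and was called lower after TMM scaling (-0.38 ± 0.10, adjusted p = 0.0168). That call was not kept without NCD replicate 2 (-0.33), without MCD replicate 1 (-0.28), with library totals (-0.05) or with the GC trend removed (-0.09). Here 3 of the 5 genes were called higher and 1 lower, against 13.9% and 13.2% of the genes tested, or 27.1% in either direction.

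Macrophages were cluster 3 on MCD, led by C1q and lipid-associated markers, and cluster 10 on NCD, with Retnla and C1q genes leading. The lipid-associated list summed to 1290 and 1244 CPM on NCD, close to the NCD monocytes, and to 5647 and 5045 CPM on MCD, and its part in the differences was not tested. Their Cyba level went from 523 and 488 to 1823 and 1757 CPM, the highest fitted Cyba difference of the 3 classes (1.44 ± 0.12, adjusted p = 2.83e-06 by edgeR). Their Cybb level went from 1401 and 1383 to 1807 and 1828 CPM with a fitted log2 fold change of 0.00 ± 0.11, so CPM and the TMM fit differ here as they do in the union. Their Rac2 level went from 157 and 128 to 276 and 281 CPM (0.56 ± 0.15, adjusted p = 0.0155), and this call was not kept with the GC trend removed (0.13, adjusted p = 0.604), without NCD replicate 2 (0.42, adjusted p = 0.0716) or without MCD replicate 2 (0.50, adjusted p = 0.0510). Clustering without the oxidase genes (0.35, adjusted p = 0.103), resolution 2.0 and thinned counts did not keep it either. In macrophages 3 of the 5 genes were called higher, where 14% of the genes tested were higher and 27% were called in either direction.

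The diet differences of the Ly6Chi-like and Ly6Clo-like monocytes were compared directly with a class by diet term, library being a block. None of the 5 genes passed by the edgeR quasi-likelihood test, where 2.75% of all genes did, 0.763% with a positive and 1.99% with a negative term. At an unadjusted p under 0.05, 2 of the 5 stood out, Cyba with -0.34 ± 0.12 (adjusted p = 0.142) and Cybb with 0.23 ± 0.09 (adjusted p = 0.217). Cyba passed without NCD replicate 2 (-0.54, adjusted p = 0.00488), with up to 20% mitochondrial UMIs and at Leiden resolution 2.0, and Cybb passed with library totals and without the 5% of cells with most UMIs. A difference between these classes in any of the 5 genes was therefore not established here.

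**Figure D4:**
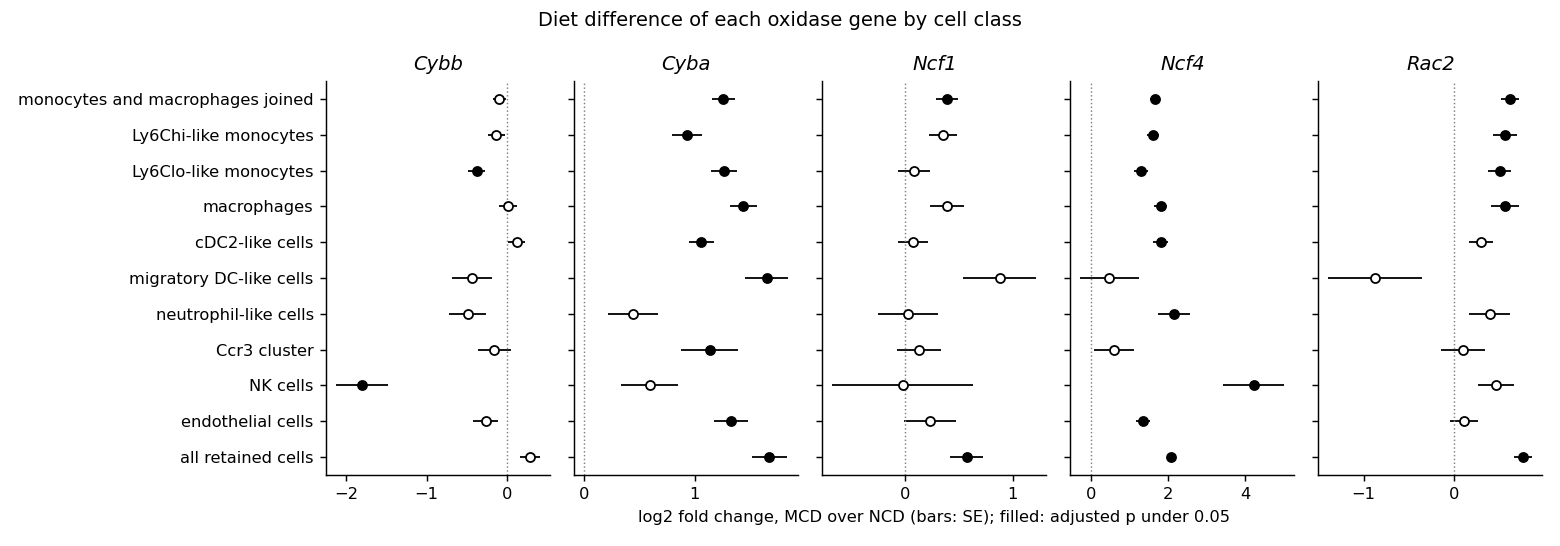
Log2 fold change of MCD over NCD (horizontal axis, own scale per gene, bars are standard errors) in each cell class (rows), with filled points where the adjusted p was under 0.05. Cyba is filled in 9 of 11 rows and lies right of 0 in each, while Cybb is filled to the left in Ly6Clo-like monocytes and NK cells.

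Outside the union, Cyba and Ncf4 rose in cDC2-like and endothelial cells, and Cyba but not Ncf4 in migratory DC-like cells. In cDC2-like cells, conventional dendritic cells that present antigen to CD4+ T cells, Cyba went from 399 and 352 to 1226 and 1182 CPM (1.06 ± 0.11, adjusted p = 5e-06 by edgeR). Ncf4 there went from 26.4 and 21.8 to 134 and 128 CPM (1.81 ± 0.20, adjusted p = 7.29e-06). Thus 2 of the 5 genes were called higher in cDC2-like cells, where 15.2% of the genes tested were and 30.4% were called in either direction. With the GC trend removed, Cyba did not pass there (0.21, adjusted p = 0.181). Markers of other cells were also higher on MCD in this class, the lipid-associated list with 582 and 551 against 2172 and 2203 CPM, the C1q list with 450 and 448 against 1240 and 1348 CPM, the hepatocyte list with 87.6 and 111 against 314 and 346 CPM and the erythroid list with 3.17 and 1.36 against 261 and 1617 CPM, and their part was not tested.

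In migratory DC-like cells, marked by Ccr7 and Fscn1, Cyba reached its highest level of any class on MCD. It had 566 and 396 CPM on NCD and 1855 and 1915 CPM on MCD (1.65 ± 0.20, adjusted p = 1.39e-07 by edgeR). Rac2 was the lowest of any class there, with 68.3 and 99 CPM on NCD and 36.6 and 65.5 CPM on MCD (-0.87 ± 0.52, adjusted p = 0.315). In these cells 1 of the 5 genes was called higher, where 5.11% of the genes tested were, with 4.85% lower and 9.97% in either direction. Of the 5 genes' UMIs in these cells Cyba held 56.3% and 40.7% on NCD and 78.3% and 75.1% on MCD.

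Granulocyte-type and lymphoid classes differed from the monocytes in which genes they held. Cluster 13, drawn as neutrophil-like, had 20 and 27 cells on MCD and the cycling genes Top2a and Ube2c among its leading genes. Its 13 neutrophil markers summed to 46927 and 42353 CPM on NCD, to 20599 CPM in MCD replicate 1 and to 25.1 CPM in MCD replicate 2, so the name does not hold for the last library and the diets compare unlike cells. It had 13.9 to 26.3 CPM of Ncf4 on NCD and 123 and 143 CPM on MCD (2.16 ± 0.41, adjusted p = 0.00659 by edgeR). That was the 1 gene of 5 called there, where 5.41% of the genes tested were higher and 13.4% were called in either direction, and it was not kept without NCD replicate 2 (1.54, adjusted p = 0.0505). In NK cells Ncf4 had 1 and 0 UMIs on NCD and 27 and 19 UMIs on MCD (adjusted p = 0.00129), counts too few on NCD for a fold, and DESeq2 did not call it. Cybb in NK cells rested on 32 and 41 UMIs on NCD and 31 and 15 UMIs on MCD and was called lower (-1.80 ± 0.32, adjusted p = 8.33e-04 by edgeR). These UMIs were read above as a level for free RNA, and the part of free RNA in the lower call was not tested. Of all genes tested in NK cells, 8.79% were called higher and 12.3% lower, 21.1% together.

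An unnamed cluster with Retnlg, Ccr3 and Alox15 among its leading genes, called the Ccr3 cluster here, was the main holder of Ncf1 by level. Ncf1 had 1112 and 1226 CPM there on NCD and 1137 and 1345 CPM on MCD, and the diets overlapped. On each diet this did not overlap with the next class, basophil-like cells on NCD with 358 and 414 CPM and migratory DC-like cells on MCD with 201 and 260.1 CPM. Thinning to 1000 UMIs left 580 of its 734 and 362 of its 490 MCD cells, the deeper ones. An Ncf1 UMI was found in 63.6% and 67.4% of those cells. No share is given on NCD, where fewer than 20 cells per library reached that depth. Its cells are shallow, with medians of 756 and 757 UMIs on NCD and of 1313 and 1226.5 UMIs on MCD. Cyba was the 1 gene of 5 called higher (1.14 ± 0.26, adjusted p = 0.0142 by edgeR), where 1.58% of the genes tested were and 2.42% were called in either direction. That call was not kept without NCD replicate 1 (0.92), with the GC trend removed (0.59), with DESeq2 or with counts thinned to the smallest library. With 111 and 41 NCD cells against 734 and 490 MCD cells, this cluster held 18.4% and 12.2% of all Ncf1 UMIs on MCD and 3.15% and 1.69% of all UMIs.

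The endothelial class, which a CD45+ sort should lack, held Cybb at 1206 and 958 CPM on NCD and at 953 and 1000.3 CPM on MCD. That level came from clusters 7 and 12. In cluster 7 the NCD libraries had 1303 and 1090 CPM of Cybb, 1244 and 1198 CPM of Ptprc and medians of 4863 and 4890.5 UMIs per cell. In cluster 15, also endothelial and also NCD, Cybb was at 122 and 115 CPM, Ptprc at 343 and 193 CPM and the medians at 2096 and 2278 UMIs. On MCD the same contrast stood between cluster 12, with 1179.6 and 1227 CPM of Cybb, and cluster 16, with 145 and 64.2 CPM. The endothelial markers summed to 8034 and 9686 CPM in cluster 7 and to 24273 and 26109 CPM in cluster 15. Clusters rich in the oxidase gene thus also had more UMIs per cell, more Ptprc and fewer endothelial transcripts, and whether they hold mixed droplets was not tested.

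Within the endothelial class as a whole, Cyba (1.33 ± 0.15, adjusted p = 6.4e-05 by edgeR) and Ncf4 (1.34 ± 0.18, adjusted p = 1.85e-04) were called higher on MCD. These 2 of the 5 genes compare with 16.3% of the genes tested, and 29.7% in either direction. Neither passed in cells of 2000 to 6000 UMIs (0.0035 and 0.32), and with the GC trend removed Cyba did not (0.41, adjusted p = 0.0739) while Ncf4 did (0.77). In the clusters with little Ptprc, Cyba was at 97.9 and 78.1 CPM on NCD (cluster 15) and at 261 and 239 CPM on MCD (cluster 16). Over all retained cells, whose mix of classes differed between the diets, 4 of the 5 genes were called higher, where 26.1% of the genes tested were, 22.9% were lower and 49.1% were either, with Cyba going from 455 and 376 to 1475 and 1413 CPM (1.68 ± 0.16, adjusted p = 7.25e-04). Ncf1 over all cells (0.57 ± 0.15) was not called without MCD replicate 1 (0.53, adjusted p = 0.0646).

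**Figure D5:**
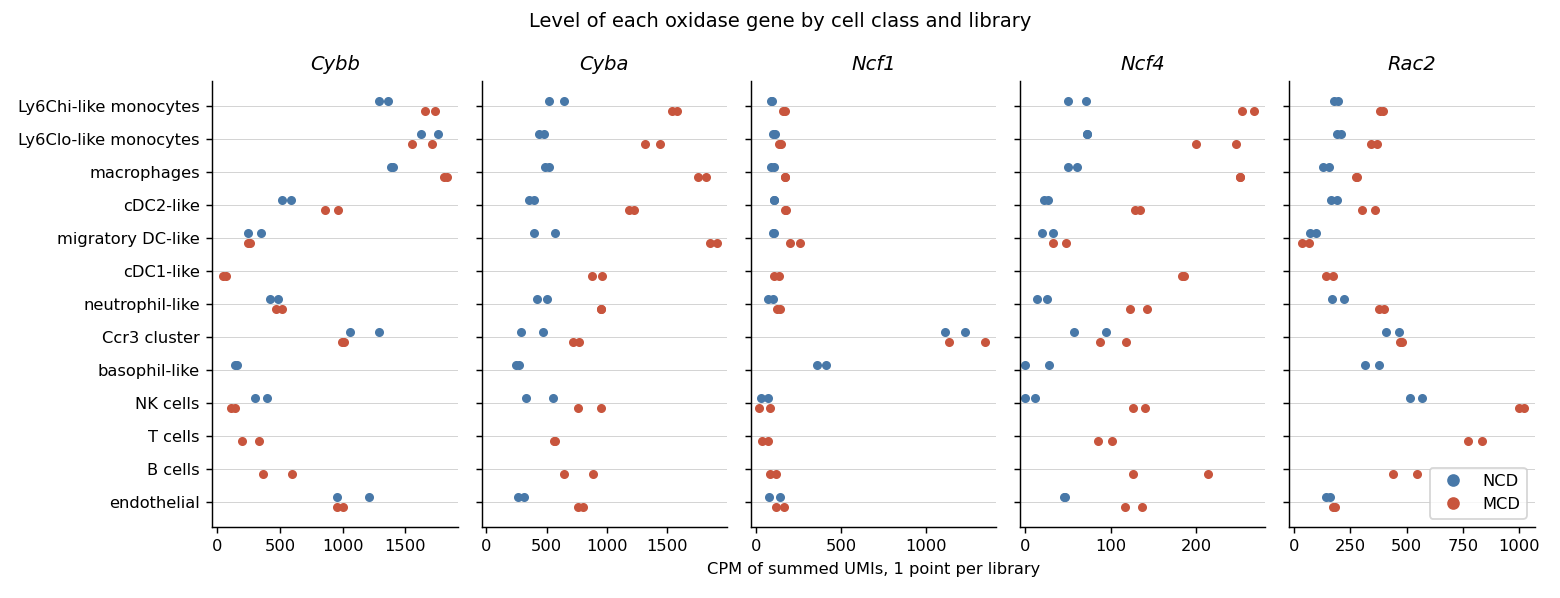
CPM of summed UMIs (horizontal axis, own scale per gene) of each oxidase gene in 13 cell classes (rows), with 1 point per library that held at least 20 cells of the class. Cybb is high in the monocyte, macrophage, Ccr3 and endothelial rows, Ncf1 stands apart in the Ccr3 cluster, and Rac2 is highest in NK cells.

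The order of the classes was not the same for the 5 genes. These levels describe clusters made from the same cells and have no test. For Cybb on NCD the order was Ly6Clo-like monocytes (1692 ± 95.5 CPM, SD, n = 2), macrophages (1392 ± 13.1), Ly6Chi-like monocytes (1327 ± 53.8), the Ccr3 cluster (1172 ± 165) and endothelial cells (1082 ± 175), with basophil-like cells lowest (149 ± 11). On MCD macrophages led (1817 ± 15.1), followed by Ly6Chi-like (1698 ± 54.6) and Ly6Clo-like monocytes (1633 ± 108), whose libraries overlapped, and cDC1-like cells were lowest (58 ± 15.8). For Cyba on NCD the libraries of all neighbours from Ly6Chi-like monocytes (580.4 ± 86.3) down to cDC2-like cells (376 ± 33.1) overlapped. On MCD the Cyba order was migratory DC-like cells (1885 ± 42.6), macrophages (1790 ± 46.2), Ly6Chi-like (1563 ± 25.6) and Ly6Clo-like monocytes (1378 ± 86.9) and cDC2-like cells (1204 ± 30.8), with no overlap between these neighbours, and T cells were lowest (567 ± 2.6).

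The order by Cybb and the order by Cyba differed most plainly for migratory DC-like cells on MCD, which were at the top for Cyba and among the lowest for Cybb. The cDC1-like cells, seen in numbers on MCD alone, had 46.9 and 69.2 CPM of Cybb and 875 and 958 CPM of Cyba. For Ncf1 the classes from endothelial cells (109.9 ± 44.4) down to NK cells (51.4 ± 31.6) overlapped with their neighbours on NCD. For Ncf4 the highest level on MCD was in Ly6Chi-like monocytes (260.5 ± 9.71), then macrophages (251 ± 0.252) and Ly6Clo-like monocytes (223 ± 33.5), and the lowest in migratory DC-like cells (40.4 ± 10.6). Rac2 was highest in lymphoid cells, with 542 ± 36.1 CPM in NK cells on NCD and, on MCD, 1009 ± 14.5 CPM in NK cells, 803 ± 43.1 in T cells and 492 ± 75.1 in B cells. These lymphoid levels of Rac2 were above those of each monocyte and macrophage class on the same diet.

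Of all Cybb UMIs in retained cells, the union held 53.7% and 51.6% on NCD and 82.6% and 76.5% on MCD. It held 41.5% and 36.2% of all genes' UMIs on NCD and 68.5% and 61.7% on MCD, so the shift in Cybb went along with a shift in all transcripts. Of Ncf1 UMIs the union held 31.2% and 34.8% on NCD and 57.8% and 55.4% on MCD, below its share of all UMIs in each library. Endothelial cells held 29% and 32.8% of the Cybb UMIs on NCD against 2.36% and 5.44% on MCD.

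Genes with the most similar profile over 44 class by library sums were found by Pearson correlation of log2(CPM + 1) among 7674 genes of at least 10 CPM on average. The sums share libraries, so these values are descriptions. Cybb was most like Rnf149 (0.87), Sirpa (0.85), which encodes an inhibitory receptor of myeloid cells, and Ap1s2 (0.85). Cyba was most like Ftl1 (0.87), the ferritin light chain, Arpc1b (0.83) and Atf3 (0.83), and after each diet's mean was taken out these values were 0.59, 0.45 and 0.64. Ncf1 was most like Arpc5 (0.84), Wnt11 (0.84) and Cat (0.82), the catalase gene, Ncf4 was most like Usp12 (0.88), Rxrb (0.85) and Pkm (0.85), and Rac2 was most like Atp2a3 (0.84), Ubald2 (0.79) and Vps37b (0.78). None of the 5 genes was among the nearest of another. Cybb had a correlation of 0.13 with its partner Cyba, and Cyba had one of 0.64 with Ncf4, and with each diet's mean taken out these were 0.38 and 0.22, in the opposite order.

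The other genes of the pathway were taken from 5 lists and read from the same union fit, in which 21.5% of genes were called higher, 18.3% lower and 39.8% in either direction. Among the relatives of the subunits, Rac3 was called higher and Rac1 lower. BC017643, whose product helps the membrane heterodimer to fold, had 60.6 and 68.1 CPM on NCD and 94.8 and 79.4 CPM on MCD and did not pass (0.09 ± 0.13, adjusted p = 0.618). Rac3 had 0 UMIs on NCD, which allows up to 1.46 and 1.60 CPM, and 38 and 36 UMIs on MCD, or 1.72 and 1.57 CPM, so no fold is given. The other oxidases were close to absent from these cells: Nox3, Nox4, Duox1, Duox2 and Noxa1 had 0 UMIs in the union, Nox1 had 3 in all, and Noxo1 had 3 on NCD and 34 on MCD.

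Of 21 tested genes that help activate the oxidase, 7 were called higher and 2 lower, where 39.8% of all genes were called in either direction. Their median log2 fold change was 0.08 against 0.03 over all genes. Coro1a, an actin-binding protein that associates with p40phox, rose from 360.3 ± 38.4 to 1683 ± 72.3 CPM (1.87 ± 0.10, adjusted p = 1.13e-05 by edgeR). Vav1, an exchange factor that loads Rac with GTP, rose from 28.7 ± 0.631 to 82.7 ± 3.5 CPM (1.17 ± 0.12). Hvcn1, the proton channel that balances the charge of the moving electrons, had 3.88 and 2.66 CPM on NCD and 33.7 and 16.5 CPM on MCD (2.56 ± 0.60, adjusted p = 0.0103). The kinase genes Syk, Prkcb and Prkcd and the small GTPase gene Rap1a were among the 12 that did not pass.

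Genes that supply NADPH were called higher in 5 and lower in 2 of 8 tested, against 21.5% and 18.3% of all genes, with a median of 0.59. Tkt, the transketolase of the pentose phosphate pathway, rose from 142 ± 11.5 to 469 ± 7.83 CPM (1.37 ± 0.10, adjusted p = 4.03e-05 by edgeR). Pgd, which makes NADPH in that pathway, rose from 82.7 ± 13.3 to 234 ± 15.7 CPM (1.15 ± 0.12), and Taldo1, the transaldolase, rose from 287 ± 18.5 to 753 ± 53.4 CPM (1.04 ± 0.10). G6pdx, which opens the pathway, was called higher by 0.54 (adjusted p = 0.0357), but not with the GC trend removed (0.18, adjusted p = 0.465). The lower genes Rpe (-0.67) and Idh1 (-0.42) did not pass with that trend removed either.

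Genes that remove superoxide and peroxide moved in both directions, 8 higher and 3 lower of 13 tested, against 21.5% and 18.3% of all genes, with a median of 0.70. Gpx4, which reduces lipid peroxides, rose from 43 ± 10 to 372 ± 35.8 CPM (2.77 ± 0.16, adjusted p = 1.52e-05 by edgeR), Prdx5 rose from 204.5 ± 9.91 to 1325 ± 99.6 CPM (2.34 ± 0.11) and Txnrd1 rose from 35.3 ± 7.34 to 126 ± 17.1 CPM (adjusted p = 1.99e-04). Sod1, the cytosolic superoxide dismutase, fell by 1.04 ± 0.10 on the log2 scale, catalase (Cat) by 0.65 ± 0.13 and Prdx2 by 0.59 ± 0.10. These 6 calls also passed with the GC trend removed, but with library totals Cat (-0.30) and Prdx2 (-0.24) did not pass.

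Of 10 transcription factors known to act on oxidase promoters, 6 were called higher and 2 lower, against 21.5% and 18.3% of all genes, with a median of 0.69. Cebpa (1.34 ± 0.12, adjusted p = 1.07e-04 by edgeR) and Cebpb (adjusted p = 2.38e-04) rose, Cebpb from 1580.0 ± 279 to 4025 ± 36.9 CPM, and Rela rose by 0.96 ± 0.13. Elf1 fell by 0.69 ± 0.11 on the log2 scale. Spi1, which encodes PU.1, was called higher by 0.91 and stood at -0.15 with the GC trend removed (adjusted p = 0.247), and Rela and Elf1 did not pass with it removed either.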

How the data were processed

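UMI counts per gene and barcode are as deposited; the authors made them with Cell Ranger (3.0.2 per the file headers) on mm10, per the submitters' processing notes, from 3′ libraries. No source used here gives the cell calling settings. Barcodes were kept from 200 detected genes up and to a mitochondrial share of 10%. No doublet caller was used, so doublets are taken as present. Counts scaled to 10000 and log transformed, 2000 variable genes by library, 30 principal components and 15 neighbours went into Leiden clustering at resolution 1.0 (leidenalg 0.10.2, igraph 0.11.9, Python 3.11.15). A cluster took the name of the marker list with most genes among its top 50 by fold, needing 3 there and 1 in the top 10. The clusters were known when the naming rules, and the joining of 3 macrophage lists, were settled. The genes and lists were chosen with earlier results of these data known.

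UMIs were summed per library and class (at least 20 cells in every library) and diets were compared with edgeR 4.0.16 (TMM, filterByExpr, quasi-likelihood F test, Benjamini-Hochberg over all genes tested, R 4.3.3) and, as an alternative, DESeq2 1.42.0. An exact permutation of 2 against 2 libraries cannot go below p = 0.333. Genes named from the lists are up to 3 higher and 3 lower with the largest fold among those past the threshold and not overlapping in CPM, besides the subunits and relatives, of which some are not reported here; Syk, Prkcb, Prkcd, Rap1a, G6pdx, Rpe, Idh1 and Spi1 were added after their values were seen. Positions and G+C content come from GENCODE M21. The edgeR test was also run on simulated counts of the union.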

Additional observations from a re-analysis of the deposited data

Results flagged for a closer look

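The diet difference in CPM stood on the other side of 1 from the union of monocytes and macrophages in 3 gene and class pairs, with both MCD libraries on the opposite side of both NCD libraries in each; the difference between the classes was not tested. Cybb in the Ccr3 cluster had an MCD over NCD ratio of 0.854, with 1055 and 1289 CPM on NCD and 1009 and 994 CPM on MCD. After TMM scaling its log2 fold change there was -0.16 (adjusted p = 0.762 by edgeR), of the same sign as -0.10 in the union. Cybb in NK cells had a ratio of 0.37, with 393 and 298 CPM against 145 and 111 CPM. The log2 fold change there after TMM scaling was -1.80, also of the union's sign. These NK UMIs served above as a level for free RNA, and the part of free RNA in this difference was not tested. Rac2 in migratory DC-like cells had a ratio of 0.61, with 68.3 and 99 CPM against 36.6 and 65.5 CPM, from 7 and 6 UMIs on NCD and 39 and 104 UMIs on MCD. Its log2 fold change after TMM scaling was -0.87 there (adjusted p = 0.315 by edgeR) and 0.62 in the union.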

How the results depend on the processing

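Each result was recomputed under the alternatives. In the union, Ncf4 kept its direction and call in 20 of 20, Cyba in 19, Rac2 in 17 and Ncf1 in 11. With the GC trend removed, 2 of the 5 genes were called higher in the union (Ncf1 0.069, Rac2 0.20), 1 in Ly6Chi-like and 0 lower in Ly6Clo-like monocytes. Under 5% mitochondrial UMIs 2 were called in the union (Ncf1 0.12, Rac2 0.65), and over all cells 1 was called lower, Ncf1, reversed at -0.67. In cells of 2000 to 6000 UMIs 2 were called higher in the union (Cyba 0.34, Rac2 0.17), 2 over all cells, 1 in Ly6Chi-like and 0 lower in Ly6Clo-like monocytes. With library totals Cybb reversed to 0.25 in the union and 0.36 in Ly6Chi-like monocytes, 5 genes were called higher in Ly6Chi-like monocytes and 5 in macrophages, 0 lower in Ly6Clo-like monocytes, and 1 positive class by diet term. Clustering without the oxidase genes called 1 gene lower in the union, Cybb at -0.26, with Ncf1 at 0.20, and Ncf1 stood at 0.29 at resolution 0.5 and 0.28 at resolution 2.0. The lower count in Ly6Clo-like monocytes was 0 with no filter and at resolution 2.0, and 0 to 1 without one library. Negative class by diet terms numbered 1 with up to 20% mitochondrial UMIs and at resolution 2.0 and 0 to 1 without one library, and 1 positive term was called without the 5% of cells with most UMIs, an alternative chosen after seeing the data. Ncf1 in the union ranged from 0.29 to 0.42 without one library, where the remaining library of a diet is taken to vary like the other diet's.

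The lists held 38 called genes in the union, 24 with no filter, 24 with the GC trend removed, 18 under 5% mitochondrial UMIs and 23 in cells of 2000 to 6000 UMIs. Over all genes 4491 were called in the union, against 2701 with no filter, 713 under 5% mitochondrial UMIs, 1958 in cells of 2000 to 6000 UMIs and 2341 and 2478 without NCD replicate 1 and 2. The split of 2427 higher and 2064 lower became 4247 and 1162 with library totals. The cause of these changes was not tested. Same-numbered libraries did not deviate together over genes (correlation 0.024). This is 1 pair of differences and cannot show whether the numbers pair the libraries, and the labels state no pairing. The replicate block left the union calls as they were, with Ncf1 at 0.38, and called 4705 genes. The NCD libraries, with 2061748 and 1878836 UMIs in the union, limit the precision of the less abundant genes.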

Other observations

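Clusters 18 (MCD) and 19 (NCD), led by the interferon-inducible genes Cxcl10, Ifit1, Ifit2 and Ifit3, took no name and are outside the classes compared above, though within all retained cells and within 1 alternative for the union. Cybb had 1875 and 2171 CPM in cluster 18, with 44 and 61 cells, and 1644 and 1908 CPM in cluster 19, with 40 and 37 cells. The joined monocyte and macrophage classes had 1696 and 1755 CPM on MCD and 1416 and 1484 CPM on NCD. Cyba in these clusters had 1449 and 1483 CPM on MCD and 695 and 651 CPM on NCD. Within the Ly6Chi-like monocytes on MCD, cluster 5, led by Saa3, Tlr2 and Cd14, had 1906 and 1899 CPM of Cybb and 294 and 298 CPM of Ncf4, and cluster 1 had 1541 and 1640.3 CPM of Cybb and 234 and 249 CPM of Ncf4. Rac2 had 389.6 and 363 CPM in cluster 5 and 397 and 393 CPM in cluster 1.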
